A study of Mus musculus with 6 samples.

Results

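Hepa1-6 tumors taken 15 days after inoculation were compared with a reference on 3 of the 6 arrays of the series. These were the arrays of tumors 303, 313 and 318, chosen by the day in the sample title. The reference had the same description on each array, and the labels do not say whether the same RNA pool was used on each. Hepa1-6 is an established mouse hepatoma line, cultured in serum-containing medium before use. For each tumor 10000000 cells had been inoculated subcutaneously into female mice of strain C57Bl/6, with no other treatment named, and the tumor tissue went straight into RNAlater. Amplified tumor RNA carried the red dye Cy5, and the green dye Cy3 marked total RNA labelled as coming from the blood of an untreated female C57Bl/6 mouse. No array had the dyes exchanged. The graft lies outside the liver, in hosts whose immune system is not described as impaired, and each piece of tissue holds tumor cells together with host cells. The labels do not tie tumors to animals, so the p-values below measure only the spread between these 3 samples. In bulk tissue, fewer cells of a type and less RNA per cell cannot be told apart.

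Hepatoma cells keep part of the hepatocyte program, in which liver-enriched transcription factors such as those of the HNF4 and FOXA families drive secreted plasma proteins such as albumin, fibrinogen and, in fetal liver and hepatoma, alpha-fetoprotein. A tumor under the skin also draws in macrophages, lymphocytes, fibroblasts and vessels, and it can enclose fat, muscle and nerve of its surroundings. Every value below is a log2 ratio of tumor over reference unless it is called a signal, so that 1 means a doubling and negative values mean more RNA in the reference. A gene was called where limma gave an adjusted p under 0.05 and the mean ratio was at least 1 in size.

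The 3 tumors were labelled as tumor, and their markers were those of a mixed tissue. Probes for macrophage markers were well above background in Cy5 on all 3 arrays in 7 of 8 cases, for the T cell markers in 6 of 7, and for the simple epithelium markers in 5 of 5. The hepatocyte and hepatoma markers reached this on 4 of 8 probes and the NK markers on 2 of 4. The Cy3 channel showed markers of blood, and others besides. In Cy3, probes of the hemoglobin genes Hbb-bt and Hba-a1, of the platelet genes Pf4 and Ppbp, of Cd3d of T cells and of S100a9 of neutrophils were above background on all 3 arrays. S100a8 and Csf3r of neutrophils and Ms4a1 and Cd79a of B cells were above it on none, and of the pan-leukocyte gene Ptprc 1 of 4 probes was above it on all 3. The log2 Cy3 signal of Krt18, a keratin of simple epithelium, was 17.83, 17.99 and 17.57 on the arrays of tumors 303, 313 and 318, and that of Alb, serum albumin, was 14.86, 15.15 and 14.90. Rhox5, a homeobox gene of the reproductive tract that many tumor lines express, was among the strongest Cy3 signals with 17.95, 17.98 and 18.08. Of the 32 probes of the blood leukocyte and red cell list 56.2% exceeded the Cy3 background on each of the 3 arrays, and 47.2% of the 41174 probes on the array did so. The share was 56.8% for the macrophage list and 56.5% for the erythroid list, but 33.3% for B and plasma cells, 28.3% for T cells, 25.6% for NK cells and 18.5% for neutrophils. Most blood genes had more RNA in the tumors than in this reference. The blood leukocyte and red cell list had 16 of 18 tested genes called higher and 1 lower (median 3.42), against 26.2% and 10.6% of all genes. In the erythroid list 6 of 9 were higher and 1 lower (median 1.86). Probes of Hbb-bt had means from 4.60 to 6.08 and Pf4 5.34, while Ppbp had -2.69. Probes of Y-linked genes were above background in neither dye, 0 of 7 in each. The fibroblast marker Dcn was also strong in Cy3, with 16.82, 17.19 and 16.88. Every ratio in this text is therefore one against the reference labelled blood, whose strongest RNAs include those of hepatoma and epithelial cells and this fibroblast marker.

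**Figure D1:**
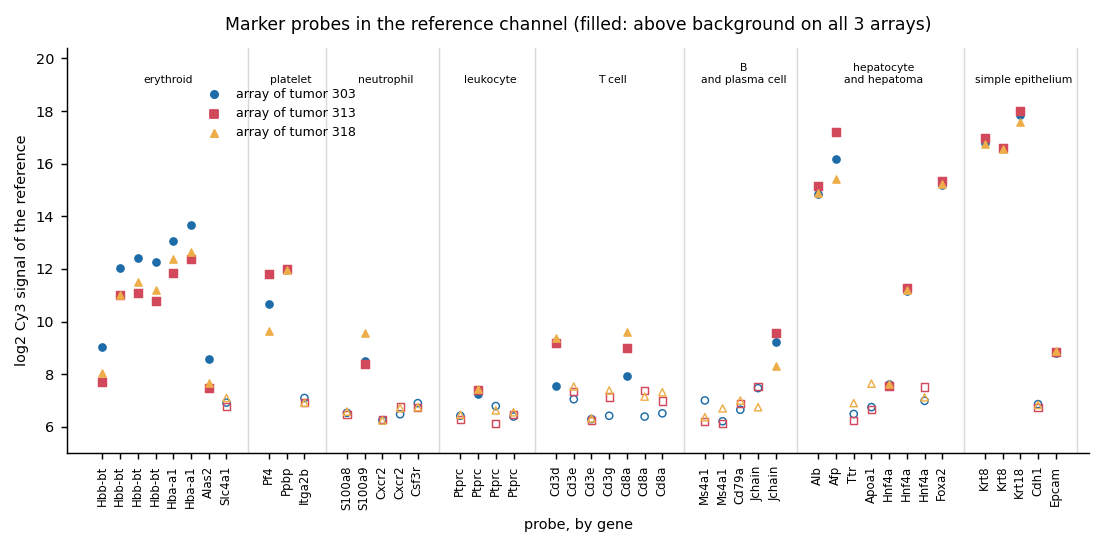
Log2 Cy3 signal of the reference labelled blood (vertical axis) for marker probes of blood cells, liver and simple epithelium (horizontal axis), with 1 point for each of the 3 day 15 arrays. Filled points mark probes well above background on all 3 arrays, and Alb, Afp, Foxa2, Krt8 and Krt18 lie above the hemoglobin probes.

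Of 16123 genes tested, 4226 (26.2%) were higher in the day 15 tumors than in the reference and 1702 (10.6%) were lower. Each called gene had the same sign in the 3 tumors. Higher genes made up 71.3% of the calls, but 35.8% where each array was centred on its median without the intensity-dependent correction and 56.3% with the scanner's own processed signals. The median ratio of all genes was 0.23, and it moved to -0.52 under the median centring, so the balance of the directions depends on the scaling, and the lists below are read against this median. The ratios of tumors 303 and 318 correlated across genes at r = 0.929, those of 303 and 313 at 0.915 and those of 313 and 318 at 0.872, while Cy3 signals correlated at 0.993 for each pair. Genes are not independent replicates, and these values only describe the arrays.

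The highest ratios included genes known from macrophages, collagen matrix and vessels. Ctss, the cysteine protease cathepsin S of antigen-presenting cells, stood at 9.94, 10.75 and 10.39 in tumors 303, 313 and 318 (mean 10.36, SE 0.21, adjusted p = 0.00015). All 3 tumors were thus far above the reference and close to each other. Next in order were Sparcl1, a matricellular protein of vessels and stroma (mean 8.56, SE 0.18), Cav1, the coat protein of caveolae (8.44, SE 0.34), Adgre1, the macrophage antigen F4/80 (8.37, SE 0.21), and Ppic, a cyclophilin (8.27, SE 0.26). Col1a1 at 8.01 and Col3a1 at 7.32 encode the main fibrillar collagens, and Serpinh1 at 7.87 is their chaperone. Srgn, the proteoglycan core of leukocyte granules, had 7.95, and F13a1, the transglutaminase subunit carried by macrophages and platelets, 7.65. Other probes of Cav1, Adgre1, Col1a1 and Col3a1 gave smaller ratios, the lowest 2.75, 1.44, 2.99 and 3.17, so the size rests on the brightest probe of each gene.

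Where the reference was not well above background on any array, the ratio is only a bound. Each bound in this text is for the mean of the 3 tumors, and a single tumor can lie under it. Lum, the collagen-binding proteoglycan lumican, was at least 526-fold higher in the tumors, Prss23, a serine protease, at least 329-fold, and Clec7a, the beta-glucan receptor Dectin-1 of myeloid cells, at least 323-fold. Evi2a followed with at least 70.9-fold, Tspan13 with 59.5-fold, Fibin with 56.0-fold, the chemokine gene Ccl4 with 55.5-fold, and Cdh5, the cadherin of endothelial junctions, with 46.0-fold. The other probes of Prss23 and Cdh5 had means of only 1.32 and 2.70, so these bounds hold for the brightest probe of each gene. Of the 4226 higher genes, 1154 had no array with the reference above background, and of the 1702 lower genes 163 had none with the tumor above it. Among genes named below, the reference was above background on no array for Plod2, Lyve1, Ednrb, Abat, Fgg, Apoh, Col8a2, Myl1 and Gzmc. This limit therefore also holds for the ratios printed for them.

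The lowest ratios included genes of epithelium, germ line and liver that are rarely active in blood. Csn3, the milk protein kappa-casein, had -4.59, -4.07 and -4.31 in tumors 303, 313 and 318 (mean -4.32, SE 0.17, adjusted p = 0.00018). The tumors lay close together, and all were below the reference. Magea6, a cancer-testis antigen, had a mean of -4.17, Perp, a desmosomal protein induced by p53, -3.85, Hao1, the glycolate oxidase of liver peroxisomes, -3.82, and Muc16, the mucin known as CA125, -3.68. Rhox2a at -3.55 and Rhox5 at -3.34 are members of 1 X-linked homeobox cluster. Magea3 was at least 8.14-fold lower than the reference and Itgb6, an integrin subunit of epithelium, at least 7.40-fold, since none of the 3 tumors was above background for them.

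**Figure D2:**
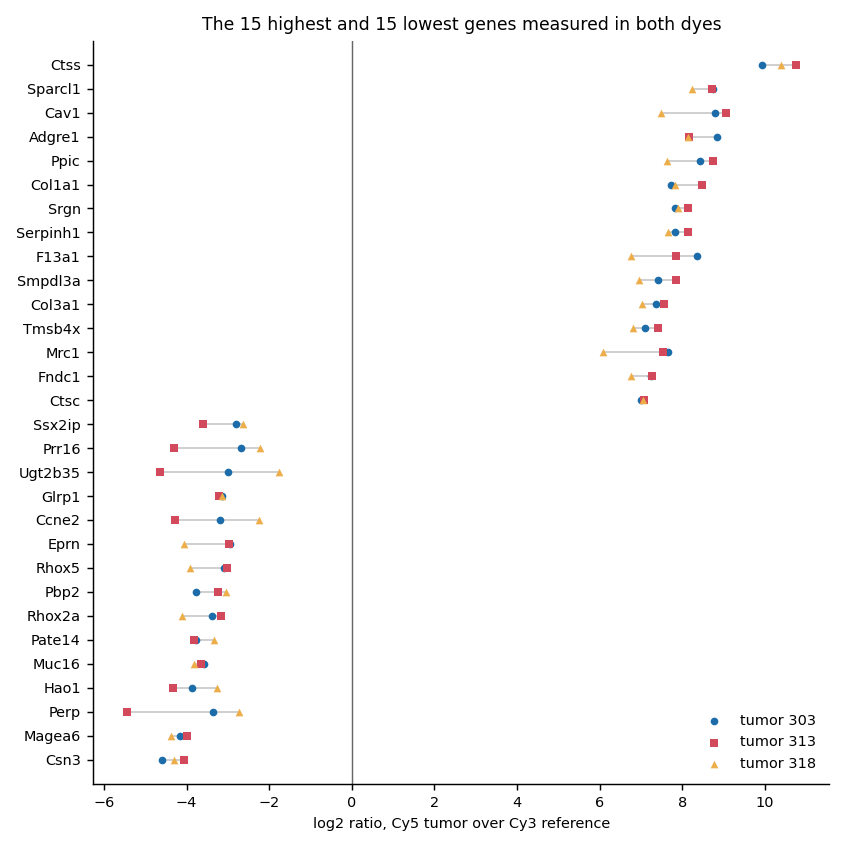
Log2 ratio of tumor over reference (horizontal axis) for the 15 highest and 15 lowest called genes measured in both dyes, with 1 point per day 15 tumor and a grey line from the lowest to the highest tumor. Ctss leads with a mean of 10.36 and Csn3 ends the order with -4.32, and no gene shown crosses 0 in any of the 3 tumors.

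Genes of macrophages and monocytes were higher as a group. All 29 tested members of this list were called higher, with a median of 4.52, against 26.2% and a median of 0.23 over all genes. Mrc1, the mannose receptor, had 7.66, 7.54 and 6.09, and Lyz1 and Lyz2, the lysozymes, had means of 6.61 and 6.05. C1qb, a chain of the complement starter C1q, reached 5.92, and Marco, a scavenger receptor, had 5.02, 4.19 and 5.79. Tumor 318 was the lowest of the 3 in 21 of the 29 genes, and the list's median was 4.84, 4.66 and 4.28 in tumors 303, 313 and 318. Clec4n, the gene of Dectin-2, departed from the list with 1.57 in tumor 313 and 4.04 and 5.50 in the others.

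MHC class II genes moved with them. H2-Aa (mean 4.97), H2-Eb1 (4.54), H2-Ab1 (4.51), the invariant chain Cd74 (4.51) and the peptide loader H2-DMb1 (4.64) each had nearly the same value in the 3 tumors. The dendritic cell and class II list had 14 of 17 tested genes higher and 0 lower. In the MHC class I list 12 of 14 were higher and 0 lower (median 3.21), led by H2-K1, a classical class I heavy chain, with 5.84, 5.85 and 5.51. Class I genes are near-identical copies of each other in places, so a probe of 1 gene may also bind RNA of its relatives. The immunoproteasome genes Psmb9 (4.38), Psmb8 (3.59) and Psmb10 (2.20) and the transporter Tap1 (2.91) were called higher as well.

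Most T and NK cell genes tested were called higher. Of 23 tested T cell genes 21 were called higher and 1 lower (median 3.74), and 20 of the 23 had their lowest value in tumor 303. Cd3g, a chain of the T cell receptor complex, had 4.87 in tumor 303, 5.88 in 313 and 6.06 in 318. Cd8b1, of the cytotoxic coreceptor, had 6.31, 7.17 and 7.06, although its other probe stood at 0.22. In the NK and cytotoxic list 23 of 24 genes were higher (median 3.20), and tumor 303 was the lowest in 22. Ifng, the interferon of these cells, had a mean of 5.38 (SE 0.23), Klrd1, the CD94 receptor chain, 5.64, and Tbx21, the transcription factor T-bet, 5.55. Gzmk, granzyme K, was at least 5.84-fold higher in the mean of the 3 tumors, with 1.25 in tumor 303 against 3.63 and 3.56. Outside the list, Klra20 and Klra12, of the Ly49 receptor family of NK cells, were at least 7.29-fold and 5.20-fold lower than the reference, and their near-identical relatives may share these probes. Of the NK markers, Ncr1 was above background in neither dye (mean 0.68). Klrb1c had a mean of 2.87, but its other probe, above background in neither dye, had 0.21. Prf1 had 3.24. The T cell gene called lower was Tcf7, a transcription factor of naive and memory T cells, with -1.77, -1.88 and -1.50. The Cy3 signal of Cd3d was not constant: it was 7.55, 9.18 and 9.36 on the 3 arrays, in the order of the tumors' Cy5 signals. Where this Cy3 signal comes from, and its part in the ratios, were not tested.

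Among genes that restrain T cells, 19 of 25 tested members of the checkpoint and regulation list were called higher (median 2.80) and none lower. Pdcd1, the receptor PD-1, had 4.19, 4.83 and 4.89. Vsir, the inhibitory receptor VISTA, had a mean of 5.07, Il10ra, a receptor chain for interleukin 10, 4.32, and the costimulator Icos 4.23. Pdcd1lg2, the PD-1 ligand PD-L2, was not called, with -1.66, 0.05 and -0.57, but it was called lower without tumor 313 (-1.11). Arg1, the arginase of liver and of myeloid cells, had 4.70, 6.17 and 4.77, highest in tumor 313.

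In the list of B and plasma cells 15 of 16 tested genes were called higher and 1 lower (median 2.79). Ighm, the heavy chain of IgM, had 5.57, 5.65 and 5.14, and Jchain, the joining chain of secreted IgM and IgA, 5.57, 6.00 and 4.80. Tumor 318 held the lowest value in 10 of the 16 genes. Tnfrsf17, the plasma cell receptor BCMA, was at least 5.90-fold higher in the mean of the 3 tumors, with 1.97 in tumor 318 and 4.04 and 3.83 in the others.

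Granulocyte genes were also higher, with differences between tumors. The neutrophil list had 12 of 15 tested genes higher and 0 lower (median 3.02), and S100a9, a calprotectin subunit, had 6.05, 6.01 and 5.78. Chil3, the chitinase-like protein Ym1 of activated macrophages and neutrophils, had 7.69 in tumor 313 but 1.83 and 1.57 in tumors 303 and 318, and was not called (mean 3.70, SE 1.29, adjusted p = 0.059). It was called higher without tumor 303 (4.63, adjusted p = 0.042) and without tumor 313 (1.70, adjusted p = 0.0028). Its neighbour in function Chil4 had 6.31 in tumor 313 and 1.93 and 1.28 in the others. The mast cell and eosinophil list had 12 of 12 tested genes higher (median 2.71), and 9 of the 12 were highest in tumor 303. The mast cell proteases Cma1 (mean 5.18) and Cpa3 (5.13) led it. Fcer1a, the IgE-binding chain of mast cells, had 4.87 in tumor 303 and 1.80 and 1.79 in the others. Since the reference was not above background, its mean change over the 3 tumors is a bound, at least 5.48-fold.

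**Figure D3:**
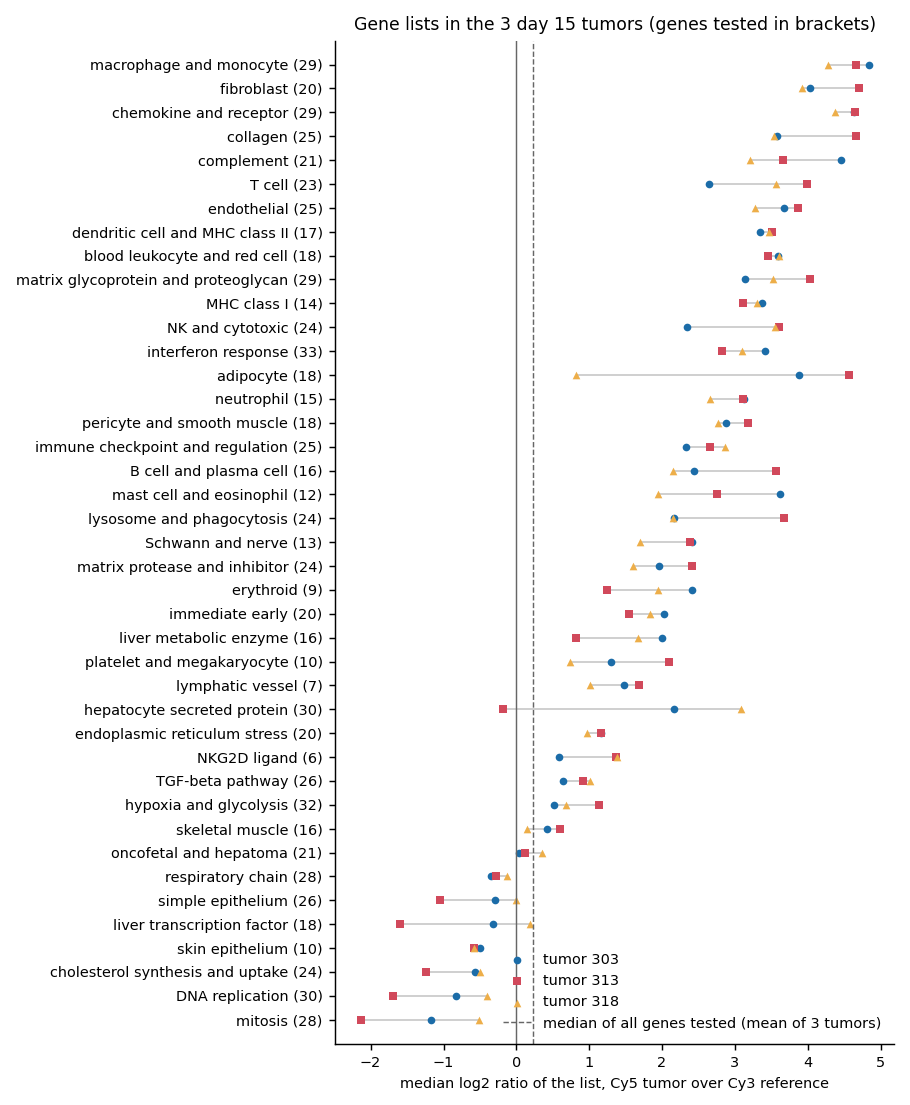
Median log2 ratio of tumor over reference (horizontal axis) of 41 gene lists (vertical axis, number of tested genes in brackets), with 1 point per day 15 tumor and a grey line spanning the 3 tumors. The dashed line is the median of all genes tested at 0.23. The macrophage list lies at the top, mitosis at the bottom, and the hepatocyte and adipocyte lists have the longest spans.

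Most fibroblast and matrix genes tested were called higher. The fibroblast list had 19 of 20 tested genes called higher and 0 lower (median 4.42), and the collagen list 22 of 25 and 0 (median 4.18). Matrix glycoproteins and proteoglycans had 23 of 29 higher and 1 lower (median 3.40), and matrix proteases and their inhibitors 18 of 24 and 1 (median 2.10). Postn, the stromal protein periostin, had 6.22, 6.67 and 5.99. Pdgfrb, the growth factor receptor of pericytes and fibroblasts, had a mean of 6.60 (SE 0.19), and Col1a2 of 6.55. Dcn, the fibroblast marker strong in the reference, departed from them, with probe means of 0.73 and -1.32. Tumor 313 was the highest of the 3 in 20 of 25 collagen genes. Lox, the enzyme that crosslinks collagen, stood at 6.23 there against 3.83 and 4.04, and Plod2, a collagen lysyl hydroxylase, at 6.00 against 3.24 and 3.29.

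The endothelial list had 23 of 25 tested genes higher and 0 lower (median 3.62). Mmrn2, an endothelial matrix protein, had 6.96, 6.92 and 6.46, and Flt1, the VEGF receptor 1, had 4.58, 6.34 and 4.65, highest in tumor 313. Tumor 318 was the lowest in 21 of these 25 genes, by small steps, since the median span of the list was 0.58. In the lymphatic vessel list 4 of 7 tested genes were higher and 1 lower (median 1.28). Lyve1, the hyaluronan receptor of lymphatic endothelium and of some macrophages, had 8.17, 5.82 and 3.70 in tumors 303, 313 and 318, so that each tumor differed from the next by over 2 units. Prox1, the transcription factor of lymphatic endothelium and of hepatocytes, had 0.61, -2.49 and 1.21, and was not called.

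Interferon response genes were higher in 29 of 33 tested members and lower in 0 (median 3.19), and tumor 313 was the lowest of the 3 in 24. Gbp3, an interferon-induced guanylate-binding protein, had 6.20, 4.75 and 6.45. Igtp and Iigp1, GTPases induced by interferon gamma, had 6.49 and 6.11 in tumor 303, 4.13 and 3.60 in tumor 313, and 6.55 and 6.54 in tumor 318. Cxcl10, a chemokine induced by the same interferon, was not called, with 2.92, -0.03 and 4.72, though without tumor 313 it was (3.82). Of the chemokine and receptor list 22 of 29 were called higher and 0 lower (median 4.27), among them Ccl6 (mean 6.39), Ccl8 (6.01), Ccl11 (5.95) and Cxcr6 (5.87). Complement genes were higher in 18 of 21 tested members (median 3.96), with C3 at 6.22, 6.14 and 5.56.

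Many genes of cell division were lower than in the reference. Of 28 tested mitosis genes 21 were called lower, against 10.6% of all genes, and none was called higher (median -1.31). Ccnb1, the mitotic cyclin B1, had -2.51 in tumor 303, -3.65 in tumor 313 and -1.38 in tumor 318 (mean -2.51, SE 0.44, adjusted p = 0.009). Bub1, a kinase of the spindle checkpoint, had a mean of -2.59, and Mad2l1, of the same checkpoint, of -2.45. The DNA replication list had 13 of 30 lower and 0 higher (median -0.99), with the primase subunit Prim1 at -2.12 and Gins1, of the replicative helicase, at -2.06. Under median centring without loess 27 of 28 mitosis genes (median -2.33) and 30 of 30 replication genes (median -2.07) were called lower. Tumor 313 was the lowest of the 3 in 28 of 28 mitosis genes and 30 of 30 replication genes, and tumor 318 the highest in each of them. The calls rested on which tumors entered: without tumor 303 there were 9 lower mitosis genes and 7 lower replication genes, without tumor 313 there were 7 and 5, and without tumor 318 there were 24 and 23. The reference signal in Cy3 was above background on all 3 arrays for 84.8% of the mitosis probes.

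Cholesterol synthesis and uptake genes were lower in 9 of 24 tested members and higher in 1 (median -0.82), and under median centring without loess in 20 and 0 (median -1.74). Hsd17b7, a reductase of the pathway, had -2.02, -2.49 and -1.32. Respiratory chain genes were called lower in 3 of 28, a share close to the 10.6% of all genes, with 0 higher and a median of -0.28. Leaving out tumor 303 left 1 lower and leaving out tumor 313 left 0, while under median centring 19 of 28 were lower (median -1.42). Of 32 hypoxia and glycolysis genes 13 were higher and 0 lower, with a median of 0.66, and under median centring 7 were higher and 6 lower, with a median of -0.45. Adm, the vasodilator adrenomedullin, had 5.45, 5.26 and 4.28, and Slc16a3, a lactate exporter, 4.72, 4.93 and 4.62. Endoplasmic reticulum stress genes were split, 11 of 20 higher and 3 lower, with a median of 1.16, and under the same centring 3 were higher and 4 lower, with a median of -0.01. The 3 lower without that centring were Chac1 (mean -2.95), Asns (-2.41) and Trib3 (-1.23), which are known targets of the transcription factor ATF4. Trib3 was not called without tumor 303 (adjusted p = 0.053) or without tumor 318 (mean -0.96).

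Genes of the liver program were among those that set tumor 313 apart from the other tumors. Of 30 tested genes of secreted hepatocyte proteins 9 were called higher, close to the 26.2% of all genes, and 0 lower. The list's median was 2.16 in tumor 303, -0.18 in tumor 313 and 3.09 in tumor 318. Afp, alpha-fetoprotein, had 2.22, -4.75 and 3.25, so that its mean of 0.24 (SE 1.62, adjusted p = 0.90) describes no tumor. Alb had 2.75, -2.48 and 2.95, Fgb, the fibrinogen beta chain, 3.19, -2.58 and 4.04, and Ambp, the precursor of alpha-1-microglobulin and bikunin, 7.47, -0.99 and 7.93. In each of these genes tumor 313 lay below 0 and the other tumors above it. The quantile-normalized Cy5 signal of Alb was 17.08, 12.18 and 17.51 while its Cy3 signal was 15.39, 15.63 and 15.42, so for Alb the difference lay in the tumor dye. The Cy5 signal of Afp was 17.88, 11.94 and 18.43, and its Cy3 signal moved the opposite way, with 16.70, 17.61 and 15.94. The part of this in the ratio of Afp was not tested. Without tumor 313, 20 of the 30 genes were called higher, among them Afp (mean 2.73), Alb (2.85), Fgb (3.62) and Ambp (7.70). Not every gene of the list followed: Hp, the hemoglobin binder haptoglobin, had 5.17, 5.10 and 4.59, and the coagulation factor genes F7 and F10 were highest in tumor 313, with 4.87 and 4.60.

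Liver transcription factors showed the same order. Foxa2 had -0.23 in tumor 303, -5.71 in tumor 313 and -0.00 in tumor 318, and Foxa3 -0.44, -3.75 and -0.20. Tumors 303 and 318 were near the reference for these factors, and tumor 313 far below it. Hnf4a was called lower, with -1.83, -3.60 and -1.13. Its other probes, above background in Cy5 on 1 array or none, had -0.36, -0.37 and -0.36, and -0.80, -0.91 and -0.18. The call and the low value in tumor 313 thus rest on 1 probe. In contrast Cebpa, Cebpb and Creb3l3 were called higher, with means of 2.08, 2.76 and 3.43, and their values in tumor 313 were 2.92, 2.97 and 3.15. Of 18 tested factors 4 were higher and 3 lower (median -0.52), near the shares of all genes, 26.2% and 10.6%. Without tumor 318 the lower ones were 5, and under median centring they were 8.

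**Figure D4:**
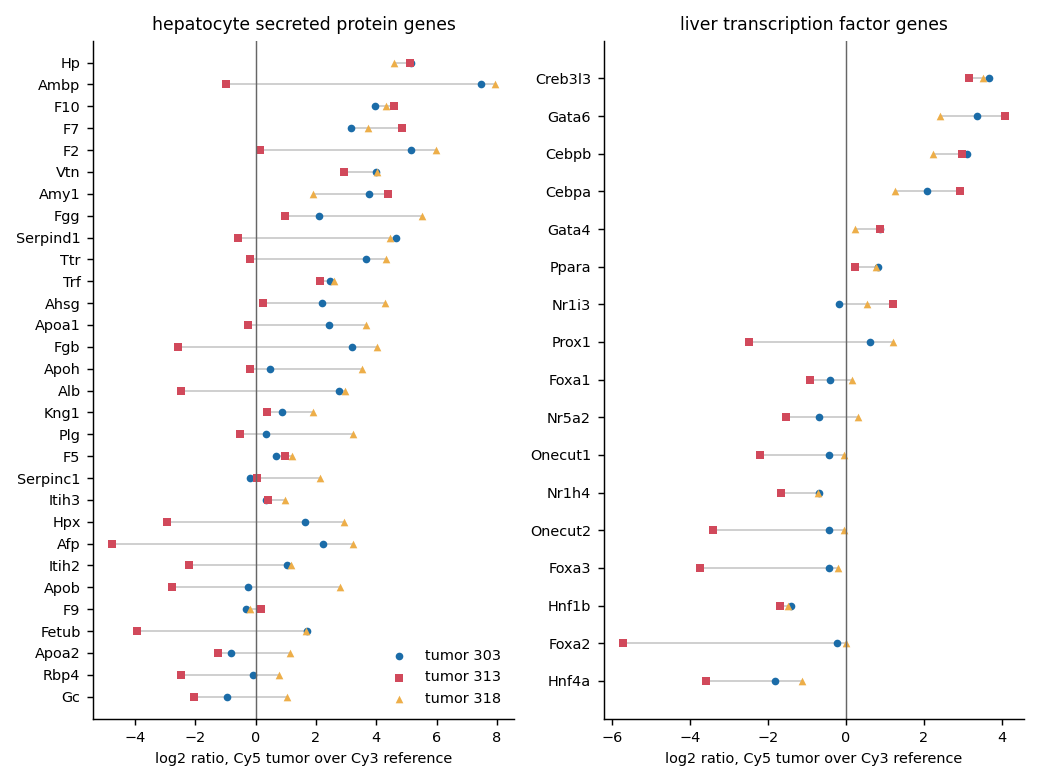
Log2 ratio of tumor over reference (horizontal axes) of tested hepatocyte secreted protein genes (left) and of liver transcription factor genes whose results are given here (right), with 1 point per day 15 tumor and a grey line from the lowest to the highest tumor. Tumor 313 is the lowest for Afp at -4.75 and for Foxa2 at -5.71, while Hp, F7, F10 and Creb3l3 lie above 0 in all 3 tumors.

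Counted over the genes with a tumor signal above background on at least 1 array (15762 genes), tumor 313 had 208 genes lying 2 or more log2 units under both other tumors and 45 genes as far above both. Tumor 318 had 51 below and 14 above, and tumor 303 had 10 below and 13 above. This is a description of the 3 samples, with no test, since 1 tumor chosen by its values is no group. The 208 genes held 13 of the 30 hepatocyte secreted protein genes (43.3%) and 5 of 18 liver transcription factors (27.8%), beside 1.32% of all genes counted. Farthest down were Ambp, C4bp, which encodes the complement inhibitor C4b-binding protein (3.80, -4.10 and 4.75), and Crisp1, a secreted protein of the epididymis (2.12, -5.23 and 3.53). Igfbp1, a growth factor binder made by liver, had 2.35, -4.02 and 3.38, and Proc, the anticoagulant protein C, 3.90, -2.44 and 4.29. Cdh16, an epithelial cadherin, had 4.90, -1.59 and 4.63. None of these genes was called over the 3 tumors, and without tumor 313 each was called higher, with means from 2.83 for Crisp1 to 7.70 for Ambp.

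The 45 genes far above in tumor 313 held 3 of 24 lysosome genes (12.5%), Ctsl, Gpnmb and Ctsd, and 2 of 15 neutrophil genes (13.3%), Chil3 and Mmp8, beside 0.285% of all genes counted. The fibroblast, collagen and matrix glycoprotein lists each had 1 gene there, Lox, Plod2 and Spp1. Ctsl, the protease cathepsin L, had -0.05, 3.43 and -0.59, Gpnmb, a glycoprotein of lipid-loaded macrophages, -0.93, 3.12 and 0.01, and Ctsd, cathepsin D, 1.56, 3.92 and 1.87. Spp1, the secreted phosphoprotein osteopontin, had -1.89, 1.88 and -1.19, so that only tumor 313 was above the reference, and it was called lower without that tumor (-1.54). For Ctsl the Cy3 signal moved the opposite way, with 17.64, 15.93 and 17.89, and the part of this in its ratio was not tested. Abat, an aminotransferase of GABA breakdown, had 2.54, 5.42 and 1.73. The hypoxia and lysosome lists also had most of their highest values in this tumor, in 24 of 32 and 22 of 24 genes.

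Tumor 318 stood apart by its adipocyte genes. The adipocyte list had 13 of 18 tested genes called higher and 0 lower, with medians of 3.88 in tumor 303, 4.57 in tumor 313 and 0.82 in tumor 318, and tumor 318 was the lowest in 18 of 18. Of the 18 genes 10 lay 2 or more units under both other tumors. Adipoq, the fat hormone adiponectin, had 5.58, 5.69 and 1.67, and Plin1, which coats lipid droplets, 5.53, 5.55 and 0.81. Plin1 was not called without tumor 303 (adjusted p = 0.060) or tumor 313 (0.067). Cidec, of the same droplets, had 4.92, 5.40 and -0.72 and was called higher only without tumor 318 (mean 5.16). Cfd, the complement factor adipsin secreted by fat cells, had 6.95, 7.07 and 3.30, and Mup1, a major urinary protein with near-identical relatives, 6.68, 6.77 and 2.13. Of 14 skeletal muscle genes counted, 1 (7.14%) lay as far below in tumor 318, Myl1, a fast-fibre myosin light chain, with 2.75, 3.29 and 0.23, beside 0.324% of all genes. Myl1 was called higher, but not without tumor 303 (adjusted p = 0.10) or tumor 313 (0.097). In this list 16 of 36 genes were tested, with a median of 0.46 that fell to -0.60 among genes above background in both dyes on all arrays. The defining muscle markers Ckm and Myh4 were above background in neither dye.

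Above the other tumors, tumor 318 had 14 genes, 6 of which were plasma protein genes of hepatocytes. Fgg, the fibrinogen gamma chain, had 2.12, 0.97 and 5.51, Apob, the core of lipoprotein particles, -0.25, -2.77 and 2.79, and Apoh, a phospholipid-binding glycoprotein, 0.49, -0.18 and 3.53. Fgg was not called without tumor 303 (adjusted p = 0.052). In Fgg, Apob and Apoh tumor 303 lay between the others. In tumor 303 itself the genes above both others included, beside Fcer1a and Lyve1, Cnn1, the calponin of smooth muscle (4.39, 1.86 and 0.94), and Ednrb, an endothelin receptor (6.20, 3.99 and 3.17). The 10 genes below both others included Col8a2, a collagen chain of vessels and cornea (0.52, 4.18 and 4.23, not called without tumor 313 or 318, adjusted p = 0.076 and 0.092). They held 2 of 24 NK and cytotoxic genes (8.33%), Gzmk and Gzmc, beside 0.0634% of all genes counted, and Gzmc, granzyme C, had 1.86, 4.22 and 3.97.

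**Figure D5:**
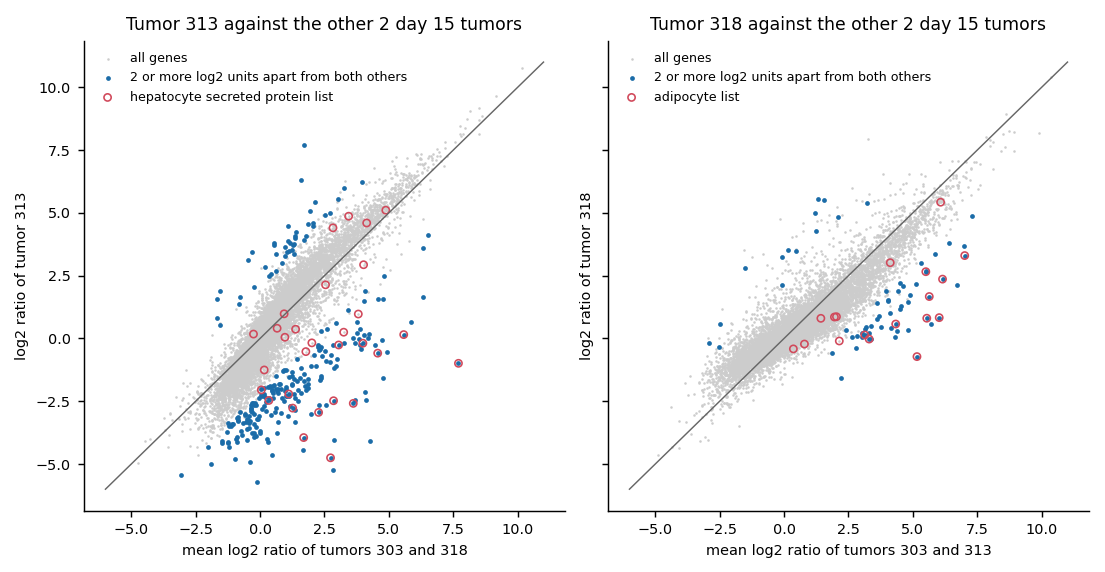
Log2 ratio of tumor 313 (left) and tumor 318 (right) on the vertical axes against the mean of the other day 15 tumors on the horizontal axes, for 15762 genes in grey. Blue points lie 2 or more units from both others, red circles mark the hepatocyte secreted protein list (left, 13 of 30 far below) and the adipocyte list (right, 10 of 18 far below), and the line marks equality.

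The Cy3 signal was not the same on the 3 arrays for many of the genes that varied most. Of 835 genes whose quantile-normalized Cy5 signal spanned 2 or more units over the tumors, 278 spanned 1 or more in Cy3, and in 237 of these the highest and the lowest array were the same in both dyes. The median Cy3 span of all genes tested was 0.106. For Adipoq the Cy3 signal was 9.70, 10.16 and 6.57, in the order of its Cy5 signal, and for Ambp it was 10.00, 7.78 and 10.55. A Cy3 signal that moves with Cy5 makes the ratio between tumors smaller, and where it comes from was not tested. Of the 208 genes far below in tumor 313, 173 were also 2 or more units below in Cy5 alone. In Cy3, 8 were lower by 1 or more and 2 were higher by 1 or more.

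Oncofetal and hepatoma genes did not share a direction. Of 21 tested genes 8 were called higher and 6 lower, with a median of -0.13 that became 0.02 without background correction. Gpc3, the oncofetal proteoglycan glypican 3, had 5.48, 5.13 and 5.04, and the imprinted genes Mest and Cdkn1c had means of 4.75 and 4.63. H19, an imprinted RNA of fetal liver, had 0.52, 3.20 and 1.57, and was not called without tumor 318 (adjusted p = 0.080). Igf2bp3, a fetal RNA-binding protein, was lower, with -1.90, -3.88 and -1.31. In the NKG2D list, of which 6 of 12 symbols were on the array, 3 genes were called higher and 2 lower. The higher 3 were no ligands: the receptor Klrk1 was at least 6.40-fold higher, and its adaptors Hcst and Tyrobp had 3.92, 5.01 and 4.25, and a mean of 4.80. Of the ligands in this list, Ulbp1 (mean -1.72) and Raet1a were lower, the latter with -1.40, -0.72 and -0.89 and not called without tumor 303 (-0.81). Raet1e was not called (mean -0.99), though without tumor 313 or 318 it was lower (-1.02 and -1.12). Outside the matched list, probes of H60, a further ligand, had means of -4.80 and -2.20.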

How the data were processed

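Each array carried 45018 spots, of which 43379 were not controls. Per the file headers, the deposited scanner files come from Agilent Feature Extraction, version 9.1.3.1 in the submitters' processing notes, and hold mean and background intensity values for each dye. They also hold the scanner's log10 ratio, which the value table that the authors deposited repeats exactly; its scale is log10 of Cy5 over Cy3, with a median of 0 on each array. Nothing in the sources used here names a further step.

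Background was corrected by normexp (offset 50) and the dyes were balanced per array by loess, in which control spots and outlier spots had weight 0, and intensities were turned to log2 ratios with limma 3.58.1 in R 4.3.3, while the deposited log10 ratios were multiplied to log2 as an alternative. Spots of a probe were averaged. A probe was kept where 1 dye or both stood well above background on 2 or 3 arrays (24002 probes), and the brightest probe stood for each of 16123 genes; names came from RefSeq tables through accessions for 23374 of 41174 probes, through current or older symbols for 6733 and 2919, and from the array for 8148. The mean over the 3 arrays was tested against 0 with limma (lmFit, eBayes, 2-sided), adjusted by Benjamini-Hochberg, and tested on simulated data. The reference has no spread of its own in this test. The 3 arrays lay on 1 slide and their number limits the precision. Tumor and dye are confounded without a dye swap, so dye bias and tumor effects cannot be told apart for a gene. Bounds compare the tumor mean with the lowest signal well above background after loess and quantile normalization of the averages.

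Genes were named by these rules: the 15 highest and 15 lowest called genes measured in both dyes, the 10 largest bounds each way, in each of 42 lists the 5 largest mean ratios and the 3 largest spans, the 20 largest spans of all, and the 8 genes farthest apart in each tumor and direction, with defining markers added. Some liver genes were named after their values were seen. The gene lists and rules were chosen with earlier results of these data known. Results of a few genes are not reported here.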

Additional observations from a re-analysis of the deposited data

How the results depend on the processing

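The count of higher genes was within 1.5 times of 4226 under most alternatives, and was 2516 for genes above background in both dyes on all 3 arrays and 2108 with a test against a ratio of 1. The count of lower genes moved more, from 1702 to 5529 under median centring without loess, to 3294 with the scanner's processed signals and likewise with the value table, to 3560 with no minimum fold and to 279 with a test against a ratio of 1. Leaving out 1 tumor gave 3853 to 4563 higher and 1227 to 2112 lower genes. Genes standing apart in tumors 303, 313 and 318 numbered 23, 253 and 65; processed signals gave 61, 444 and 193, a gap of 1 unit 279, 1188 and 662, and a gap of 3 units 2, 94 and 23. Genes above background in both dyes on all 3 arrays gave 5, 147 and 13, and the Cy5 signal alone gave 37 in tumor 303. Signs changed in uncalled genes. Under median centring Afp was at -0.93, Alb at -0.087, Crisp1 at -0.90, Ctsl at -0.26, Gpnmb at -0.37 and Igfbp1 at -0.61, Crisp1 was at -0.45 with the processed signals and the value table, and Apob at 0.089 without background correction. Over the fits without 1 tumor, Afp ranged from -1.26 to 2.73, Apob from -1.51 to 1.27, C4bp from -0.15 to 4.27, Crisp1 from -1.55 to 2.83, Ctsl from -0.32 to 1.69, Gpnmb from -0.46 to 1.57, Igfbp1 from -0.84 to 2.87, Prox1 from -0.94 to 0.91 and Spp1 from -1.54 to 0.34. Why the values moved was not tested. No paired analysis was possible because the 3 tumors form 1 group measured against a reference, and no numbers are shared between groups. Low signals in either dye limit the ratios to bounds.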
